A study of Mus musculus with 4 samples.

Results

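The Irf2bp2 window is the megabase of mouse chromosome 8 from 129 to 130 Mb on genome build mm9, in which peaks of the orphan nuclear receptor NR6A1 crowd around and beyond the gene Irf2bp2. Its members are the peaks whose midpoint lies there: 43 of 21507 peaks in NR6A1 replicate 1 and 41 of 16160 in replicate 2. Merged over both lists they form 56 of 28444 regions. The members were chosen by peak density: the window is the second densest of the series by the sum of both lists, and its cluster of 6 shared regions was named in the choice. Its peak counts and that cluster are therefore descriptions, with no test.

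The chromatin immunoprecipitation with sequencing (ChIP-seq) used a monoclonal, immortalized line of C57BL/6 mouse mesenchymal stem cells, connective tissue progenitors able to form bone, fat and cartilage. All cells carried floxed alleles of the microRNA-processing enzyme Dicer (Dicer f/f, called Dicer WT in the labels), and all were selected with puromycin after retroviral infection. The NR6A1 group (n = 2) carried a retrovirus for Flag-HA-NR6A1, NR6A1 with Flag and HA tags, and the vector group (n = 2) carried the empty pMMP-puro vector. Both were precipitated with the same antibody to HA. The tagged receptor was thus expressed from a retrovirus in 1 clonal line, and no vector peaks are set beside the values below. Nothing in the labels says whether the 2 NR6A1 replicates came from separate infections.

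NR6A1, also called germ cell nuclear factor, binds DNA without a known hormone and is best known as a repressor that silences pluripotency genes in the early embryo. Its preferred element is a direct repeat of the half-site AGGTCA with no spacer. Irf2bp2 encodes interferon regulatory factor 2-binding protein 2, a nuclear corepressor with a zinc finger and a RING domain that was found as a partner of the transcription factor IRF2. Its relatives are Irf2bp1 and Irf2bpl.

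The position of Irf2bp2 used below, about 129.11 Mb, is the rounded one stated with the choice of the window. The gene table at hand is of build GRCm38.p6, and no coordinate was moved between builds, so no peak is assigned to an exon, an intron or a start site. In that table's order Irf2bp2 follows the protein-coding genes Slc35f3, Coa6 (assembly of mitochondrial cytochrome c oxidase) and Tarbp1 (an RNA methyltransferase). After it come Tomm20 (a receptor for protein import into mitochondria), Rbm34 (an RNA-binding protein) and Pard3 (a scaffold of cell polarity). Between Irf2bp2 and Tomm20 the table lists 5 genes, all 5 of them long noncoding RNAs. How far each of these neighbours lies from a peak was not analysed here.

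The promoter of Irf2bp2 is shown because it is the regulatory sequence of the gene at hand, with each CG dinucleotide in capitals. It comprises the 250 bases before the gene's start in RefSeq, at chr8:126593987-126594236 of build GRCm38.p6 on the minus strand, and these coordinates cannot be set against the mm9 positions of the peaks.
Irf2bp2 promoter: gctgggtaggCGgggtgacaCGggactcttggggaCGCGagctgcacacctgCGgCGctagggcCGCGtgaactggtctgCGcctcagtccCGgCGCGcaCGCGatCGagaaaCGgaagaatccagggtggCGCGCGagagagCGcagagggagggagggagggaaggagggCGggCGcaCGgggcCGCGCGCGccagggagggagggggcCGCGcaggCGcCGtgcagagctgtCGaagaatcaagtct

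These 250 bases were 71.6% G or C and held 32 CG dinucleotides, against medians of 52.4% and 6 over 32851 promoters in the table. Of those promoters, 95.4% held fewer CG dinucleotides. The half-site AGGTCA was on neither strand of the Irf2bp2 promoter with the first 50 bases of the gene added, and 16.3% of all promoters of that length held it. The longer motif TCAAGGTCA and the direct repeat of AGGTCA with no spacer, both of which contain the half-site, were in 0.423% and 0.00609% of promoters and likewise not in that of Irf2bp2. Nor did the promoters of Irf2bp1 and Irf2bpl or the listed promoters of Slc35f3, Tarbp1, Tomm20, Rbm34 and Pard3 hold any of the 3 motifs. These are matches of letters in one window and say nothing of binding elsewhere in the locus.

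Along the window, NR6A1 peaks filled the lower 500 kb and thinned out above it. The lower 500 kb held 34 peaks in each replicate, and the upper 500 kb held 9 in replicate 1 and 7 in replicate 2. No other 500-kb interval of the series, counted from multiples of 500 kb, had as many by the sum of both lists. The next one, on chromosome 3 from 107.5 to 108 Mb, had 30 and 26. Of the regions found in both lists, 23 lay in the lower 500 kb and 4 in the upper.

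Both edges of the window lay in gaps between peaks. The adjoining megabase below, from 128 to 129 Mb, held 5 peaks in replicate 1 and 6 in replicate 2, and the one above, from 130 to 131 Mb, held 17 and 14. The median window with a peak held 8 in replicate 1 and 6 in replicate 2. At the lower edge the first peaks inside were at 129034726 to 129035151 in replicate 1 (score 237) and at 129021381 to 129021998 in replicate 2 (score 348). The nearest peaks outside it lay 823 kb and 836 kb below the edge. At the upper edge no peak lay within 158 kb inside or 113 kb outside in either list.

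**Figure D1:**
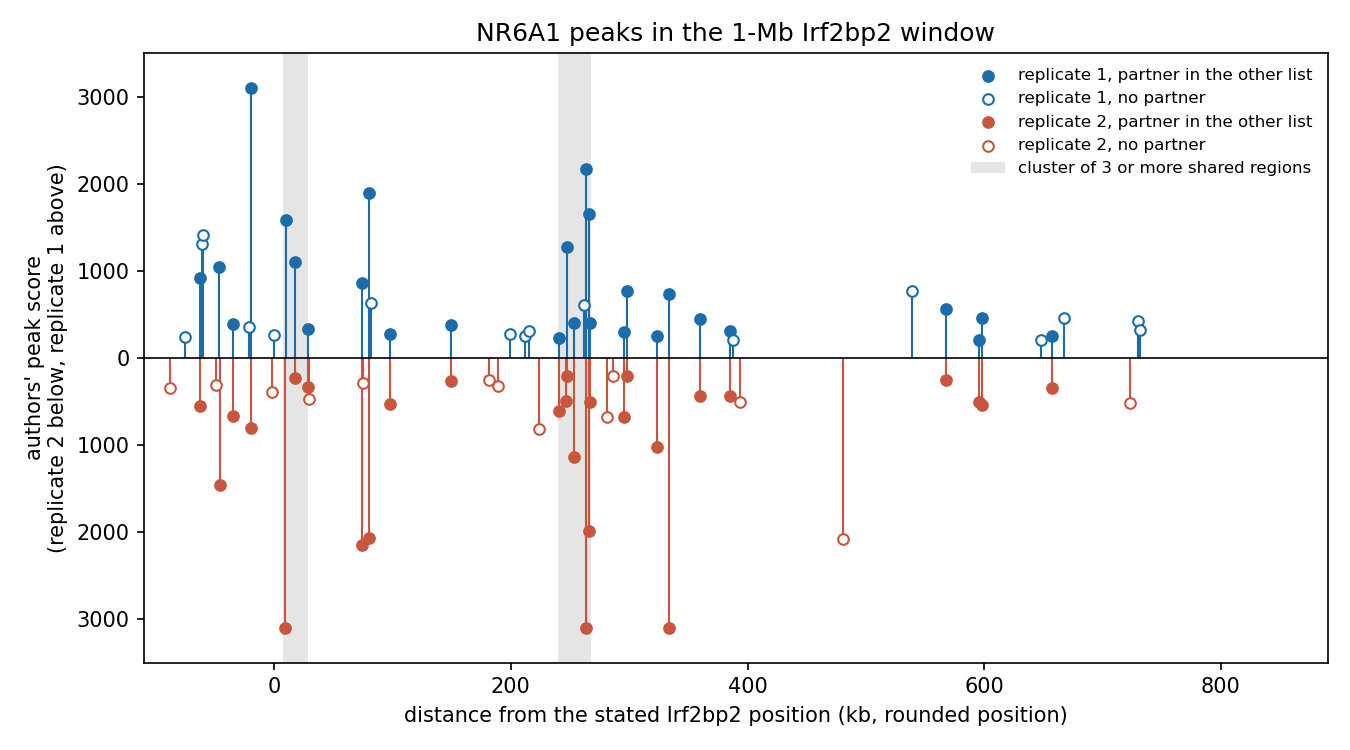
Score of each NR6A1 peak (vertical axis, replicate 1 upwards, replicate 2 downwards) against its distance in kb from the stated, rounded position of Irf2bp2; filled points have a partner in the other list, open points have none, and grey bands are the 2 clusters of shared regions. Peaks of both lists lie mostly within 400 kb above and 100 kb below the stated position.

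**Figure D2:**
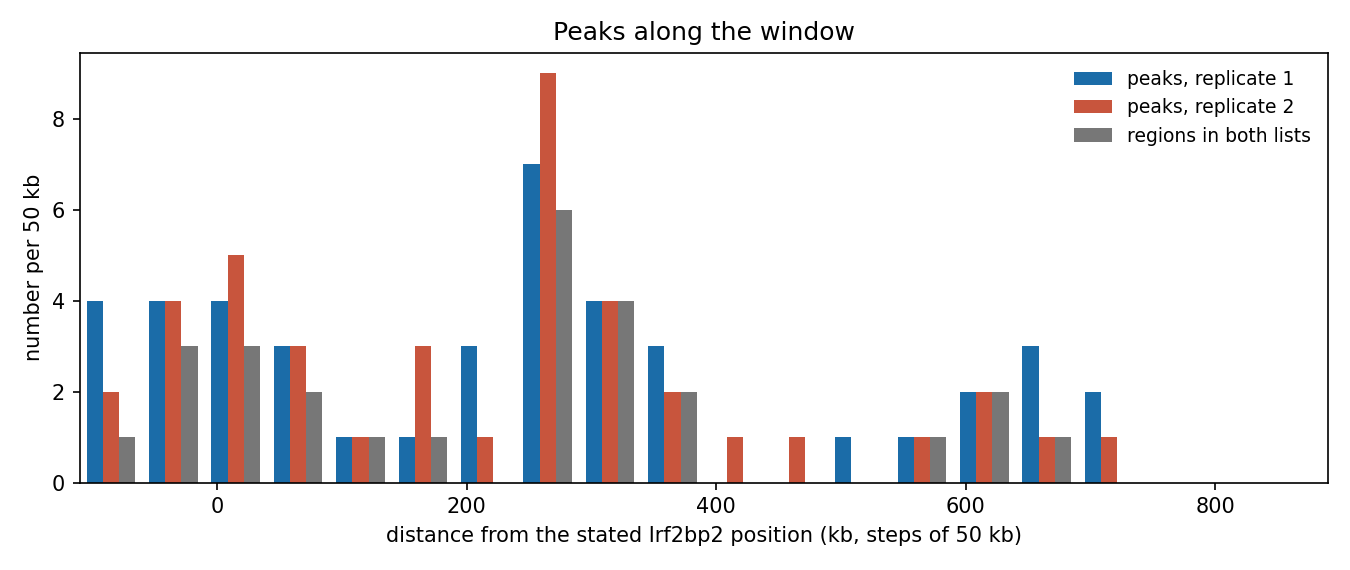
Number of peaks of each replicate and of regions in both lists (vertical axis) in steps of 50 kb along the window (horizontal axis, kb from the stated Irf2bp2 position). The step from 129.35 to 129.4 Mb holds the most, with 7 and 9 peaks and 6 shared regions, and the last 3 steps hold none.

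A peak's score is the authors' value from their peak caller, taken here as a log-transformed p-value, so that a higher score means a smaller p. It depends on the depth and background of its own library, which are unknown. It was used to rank peaks within their list and, as a description only, to set the scores of partners side by side. A ratio of such scores is not a ratio of binding. Scores start at 200.01 and 200.04, and exactly 3100 was given to 239 peaks in replicate 1 and to 187 in replicate 2. No order of strength is read at or above that tied value. A percentile below is the peak's rank by score within its own list, with 100 at the top. A partner is a peak of the other list that overlaps by 1 bp or more.

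Of the 43 replicate 1 peaks in the window, 27 had a partner in replicate 2, or 62.8% (95% Wilson interval 47.9 to 75.6%), against 42.7% of the whole list. Of the 41 replicate 2 peaks, 28 had a partner in replicate 1, or 68.3% (53.0 to 80.4%), against 56.0% of the whole list. The interval of replicate 1 lies above the share of its list and that of replicate 2 includes it. The intervals cover counting error only. The choice of the window used the density of both lists, on which the chance of a partner depends, so these shares are a description and carry no test. Some other settings turned the replicate 2 difference round or nearly removed it. Equal list lengths kept it, with 56.1% in the window and 46.8% in the whole list in replicate 2. The replicate 1 share stayed above that of its list under each alternative. When midpoints had to lie at most 100 bp apart, the shares were 39.5% in the window and 34.9% in the whole list in replicate 1, but 41.5% in the window and 46.4% in the whole list in replicate 2. In the upper 50% of each list by score they were 54.5% in the window and 38.0% in the whole list in replicate 1, and 44.4% in the window and 50.2% in the whole list in replicate 2. A 50% reciprocal overlap gave 53.7% in the window and 52.7% in the whole list in replicate 2. Among the 22 windows with 62 or more peaks by the sum of both lists, the other 21 had shares of 41.0 to 76.5% in replicate 1 (median 56.4%) and 47.1 to 89.7% in replicate 2 (median 68.0%). The Irf2bp2 window lay inside both ranges, with 5 of the 21 above it in replicate 1 and 10 of the 21 in replicate 2.

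**Figure D3:**
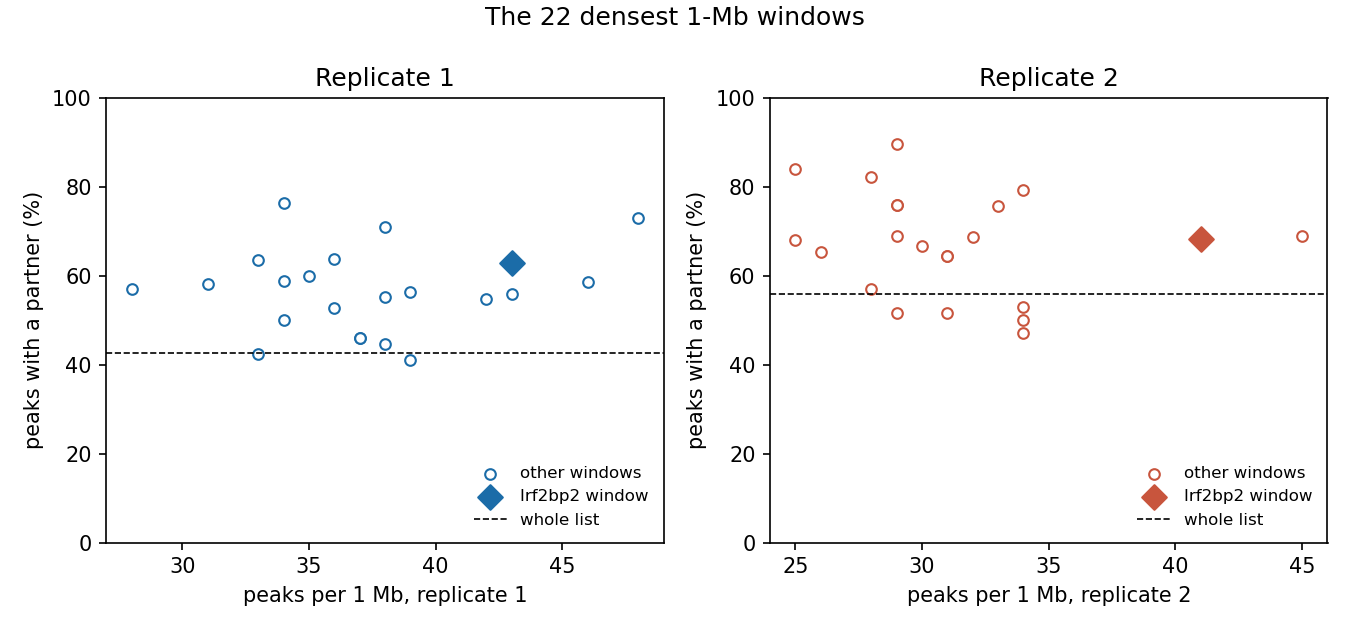
Share of peaks with a partner in the other list (vertical axis, %) against the number of peaks per 1-Mb window (horizontal axis) for the 22 densest windows; the diamond is the Irf2bp2 window and the dashed line the whole list. The diamond lies at 62.8% in replicate 1 and 68.3% in replicate 2, inside the range of the other 21 windows in each.

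The merged regions fell into 27 in both lists, 16 in replicate 1 only and 13 in replicate 2 only. Regions in both lists were thus 48.2% of the 56, against 31.7% over the series. The choice by density of both lists bears on this share too, so it is a description. The other 21 dense windows held 14 to 31 shared regions, with a median of 20. Consecutive shared regions were separated by a median of 14.6 kb, from 0.235 kb up to 182 kb. A cluster was a run of 3 or more shared regions in which no gap exceeded 10 kb, and the window held 2 of the 292 clusters of the series.

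The larger cluster is the distal one, about 240 to 270 kb above the stated position of Irf2bp2. It ran over 27.4 kb from 129350016 to 129377454 and joined 6 regions with gaps of 0.235 to 8.91 kb. Both lists had 7 peaks in it, with a median score of 608 in each. Of the 292 clusters, 11 had 6 or more regions and 3 had more than 6.

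At the upper end of the distal cluster the lists ranked the same peaks high. The highest score of the cluster was at 129373143 to 129374207 in replicate 1, with 2164, and at 129373019 to 129374295 in replicate 2, with 3100. These peaks stood at percentile 96.7 in replicate 1 and 99.3 in replicate 2. Next to it, the peak at 129375764 to 129376556 scored 1650 in replicate 1, and its partner at 129375687 to 129376632 scored 1984 in replicate 2. The midpoints of these partners lay 18 bp and 0.5 bp apart. The last region, at 129376868 to 129377454, followed after 0.235 kb and was moderate in both lists, with 400 in replicate 1 and 503 in replicate 2.

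At the lower end of the distal cluster the scores of partners diverged. The first region, at 129350016 to 129350734, scored 222 in replicate 1, at percentile 8.18, and 608 in replicate 2, at percentile 70.7. In the second, from 129356395 to 129358246, 1 wide peak of replicate 1 with a score of 1277 faced 2 narrower ones of replicate 2 with 493 and 205. The third, at 129362665 to 129364106, went the other way, with 402 in replicate 1 and 1142 in replicate 2. Over the whole distal cluster, replicate 2 had the higher score in each shared region except the second. A single peak within the cluster had no partner. It lay at 129371915 to 129372478 in replicate 1, scored 608, and ended 540 bp before the closest replicate 2 peak.

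**Figure D4:**
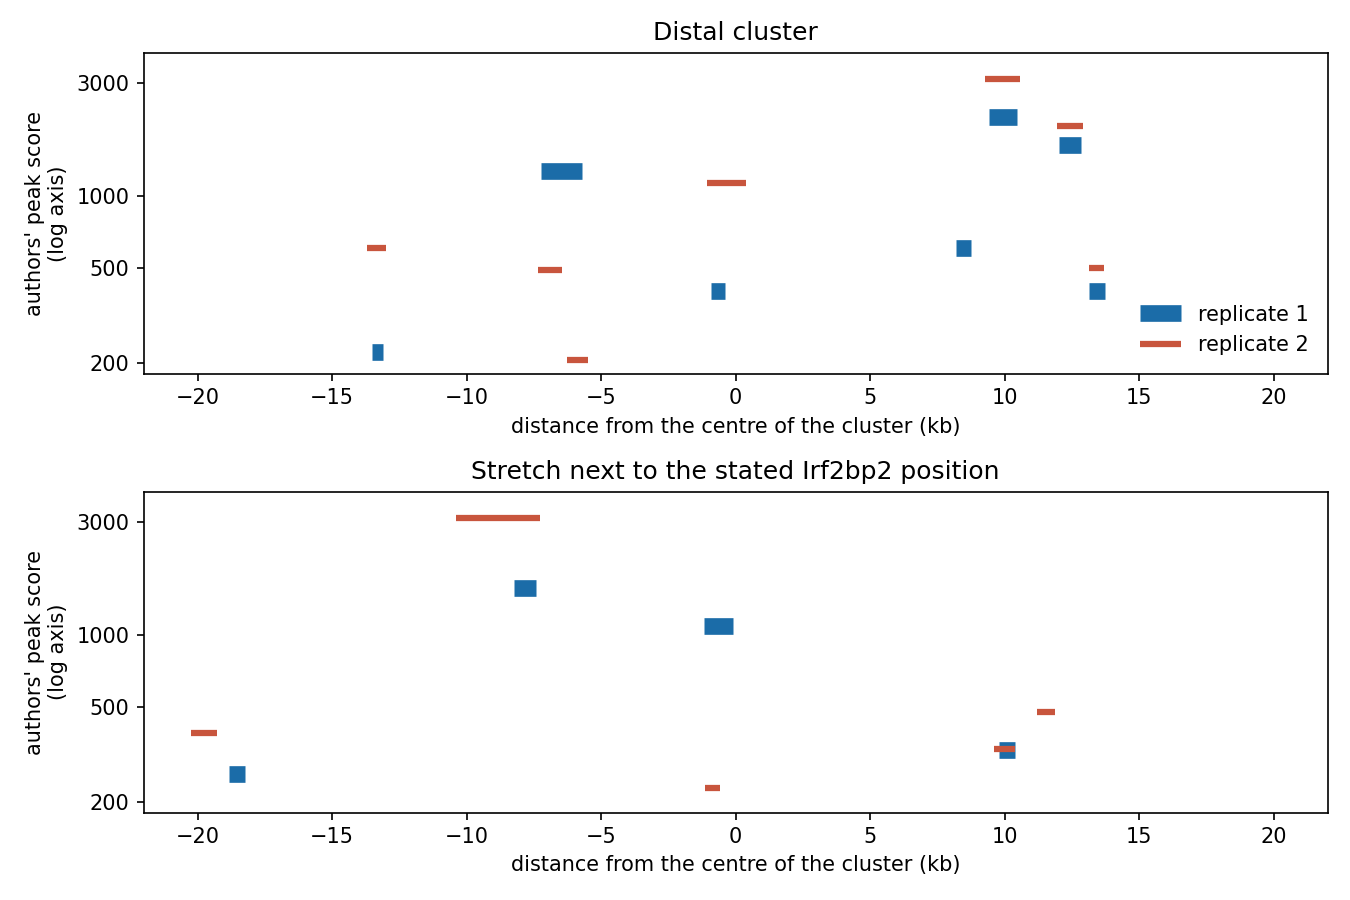
Extent of each peak (bars along the horizontal axis, kb from the centre of the cluster) at the height of its score (vertical axis, log scale) in the distal cluster (upper panel) and in the stretch next to the stated Irf2bp2 position (lower panel), with thick bars for replicate 1 and thin bars for replicate 2. The pair with scores of 2164 and 3100 stands at the upper end of the distal cluster, and the 3124-bp peak of replicate 2 at the lower end of the smaller cluster.

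Close to the gene itself, within 100 kb of the stated position, replicate 1 had 16 peaks and replicate 2 had 15. Of these, 10 in each list were partners in 10 shared regions. In replicate 1 a partner was found for 62.8% of peaks in the whole window and 42.7% in the whole list. In replicate 2 these shares were 68.3% and 56.0%. The counts near the gene are thus a description and no result apart from that of the window. Because the stated position is rounded, the peaks nearest to it need not be the nearest to the gene. Just below it, the nearest peaks were in 1 list only. Replicate 1 had one at 129109370 to 129109953, which scored 260 at percentile 20.2, and replicate 2 had one at 129107940 to 129108926, which scored 389 at percentile 49.4. They lay 443 bp apart and did not overlap. The nearest peaks above were partners, at 129119969 to 129120757 in replicate 1 and at 129117807 to 129120930 in replicate 2.

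The smaller cluster began at that replicate 2 peak, about 10 kb above the stated position, and ran over 20.8 kb from 129117807 to 129138582 with 3 regions. Its first region held the widest peak of the window, 3124 bp in replicate 2. Only 7 of the 16160 peaks of that list were wider. The replicate 1 partner, at 129119969 to 129120757, was 789 bp wide and lay at the upper end of the replicate 2 peak, with its midpoint 994.5 bp away. The scores were 1577 in replicate 1 and the tied value of 3100 in replicate 2. The second region, at 129127019 to 129128102, scored 1097 in replicate 1 and 229 in replicate 2, at percentiles 86.4 and 12.0 of those lists. The third, at 129137795 to 129138582, scored 328 and 334.

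Below the stated position, 4 shared regions lay between 129046776 and 129091013. That at 129089678 to 129091013 scored 3100 in replicate 1 and 807 in replicate 2, with midpoints 27.5 bp apart. A region at 129063180 to 129064719 was high in both, with 1040 in replicate 1 and 1465 in replicate 2. Those at 129046776 to 129047647 and 129074704 to 129075923 scored 921 and 384 in replicate 1 and 555 and 670 in replicate 2. The replicate 1 score was the higher in 2 of these 4 regions.

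Between the smaller cluster and the distal one, 4 shared regions were found. The region at 129189384 to 129191057 had like scores, 1897 in replicate 1 and 2071 in replicate 2, and holds the widest replicate 1 peak of the window, of 1540 bp. Some 5 kb below it, that at 129183515 to 129184366 scored 862 in replicate 1 and 2149 in replicate 2, with midpoints 2.5 bp apart. Weaker ones were at 129207706 to 129208319 (275 and 535) and at 129258873 to 129260134 (374 and 271). From 129.23 to 129.34 Mb the window thinned to 1 shared region, with 3 regions in each list alone.

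Beyond the distal cluster, 6 shared regions stood between 129.38 and 129.5 Mb, and in 4 of the 6 the replicate 2 score was the higher. The region at 129442940 to 129443880 scored 730 in replicate 1 and 3105.31 in replicate 2, with midpoints 3 bp apart. That at 129432559 to 129433768 scored 247 in replicate 1 and 1026 in replicate 2. The region at 129405631 to 129406339 scored 300 and 676, and its neighbour at 129407994 to 129408943 went the other way with 766 and 211. Those at 129469562 to 129470259 (445 and 439) and 129494672 to 129495334 (307 and 440) differed less. A score of 1000 was reached by 0 of the 7 replicate 1 peaks of this stretch and 2 of the 8 in replicate 2. In the whole lists 15.9% of peaks in replicate 1 and 14.0% in replicate 2 reached it. With so few peaks these counts show no difference between the replicates.

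In the upper 500 kb none of the 4 shared regions reached a score of 1000 in either list. Over the series this held for 5894 of 9009 shared regions. The 4 were at 129677256 to 129677787 (561 in replicate 1, 258 in replicate 2), 129704984 to 129705633 (206 and 513), 129707789 to 129708424 (455 and 537) and 129767132 to 129767732 (245 and 344). The one score above 1000 there stood alone: a replicate 2 peak at 129590208 to 129591225 with 2079, with no replicate 1 peak within 57224 bp.

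Peaks without a partner spanned low and middling scores, with 3 at 1000 or more. In replicate 1 the 16 ranged from 202 to 1414 with a median of 338, against 363 for such peaks in the rest of the list. Above percentile 50 of the list were 7 of the 16, and 2 reached 1000. These 2 stood side by side at 129048329 to 129049168 (1304) and 129049313 to 129049988 (1414), just above a shared region, and the third highest was at 129648450 to 129649107 (769). In replicate 2 the 13 ranged from 204 to 2079 with a median of 389, against 314 in the rest of the list, and 6 of the 13 were above percentile 50. After the highest came those at 129333052 to 129333659 (818) and 129391307 to 129391968 (678). A peak of the other list lay within 1 kb of 5 of the 16 and 3 of the 13. The window was chosen by density, which bears on such near neighbours. Neither this count nor that above percentile 50 was made for the other peaks without a partner. Both are therefore descriptions of the window only. The lists do not show sites that fell just short of the authors' threshold.

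Over the window as a whole the scores lay close to those of the rest in replicate 1 and somewhat higher in replicate 2. The median was 427 in the window and 417 in the rest of the list in replicate 1, and 513 in the window and 393 in the rest in replicate 2. The median percentile was 51.2 in replicate 1 and 63.4 in replicate 2. Among the other 21 dense windows the median score ranged from 337 to 636 in replicate 1, with 12 above this window, and from 339 to 666 in replicate 2, with 4 above it. A score of 1000 or more was reached by 10 of the 43 peaks, or 23.3% (13.2 to 37.7%), against 15.9% of the whole list in replicate 1. In replicate 2 it was 10 of the 41, or 24.4% (13.8 to 39.3%), against 14.0%. Both intervals include the share of the whole list. In 5 of the 27 shared regions both lists reached 1000, which is 18.5%, against 11.0% of 9009 shared regions over the series. Neither list did in 15 of the 27, against 5894 of the 9009.

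The 5 regions high in both lists were spread over the locus. They were the region at 129063180, the first region of the smaller cluster at 129117807, that at 129189384, and the pair at 129373019 and 129375687 in the distal cluster. The last 2 are the only ones of the 5 that are next to each other among the shared regions. With 1 list for each replicate, and peaks of a library that are not replicates of each other, no test of binding strength was made.

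Partner peaks of the window were set side by side in 28 pairs. The replicate 2 score was the higher in 19 of the 28 and the replicate 1 score in 9. The log2 ratio of scores, replicate 1 over replicate 2, had a median of -0.41 (quartiles -1.02 and 0.53), against 0.00 in 9195 other pairs (quartiles -0.67 and 0.71). An order-statistic 95% interval of the window's median, -0.96 to 0.02, includes 0, and it covers counting error over pairs that share 2 libraries. Scores were within 2-fold in 15 of the 28 pairs, or 53.6%, against 65.4% of the others. Unequal depth or background of the 2 libraries would enter this ratio and was not tested.

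**Figure D5:**
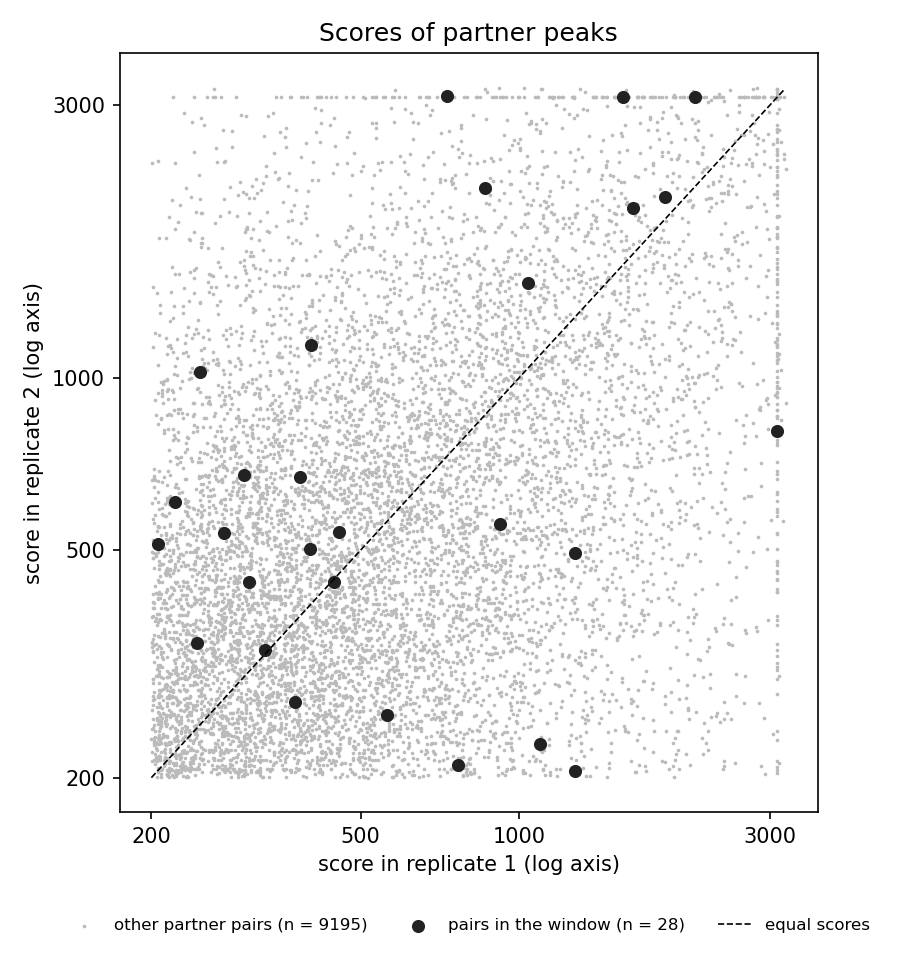
Score in replicate 2 (vertical axis, log scale) against score in replicate 1 (horizontal axis, log scale) for partner peaks of the window (28 dark points) and all other partner pairs (9195 grey points), with a dashed line at equal scores. In 19 of the 28 pairs of the window the point lies above the line.

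The window's peaks were wider in replicate 2. The median width was 573 bp in replicate 1 and 709 bp in replicate 2, against 538 bp and 612 bp in the rest of the lists. In 24 of 28 pairs, or 85.7%, the wider peak was that of replicate 2, against 70.6% of the other pairs, with a median width ratio of replicate 2 over replicate 1 of 1.27, against 1.14. Midpoints of partners lay a median of 46.8 bp apart, against 37.0 bp in the other pairs, and 17 of 28 were within 100 bp, or 60.7%, against 81.3%. Wide and divided peaks were among those with the farthest midpoints, up to 994.5 bp at the 3124-bp peak. Whether width, score and depth of the libraries moved together here was not tested.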

How the data were processed

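ChIP-seq of HA-tagged NR6A1 was used from 2 libraries of mouse mesenchymal stem cells, and the 2 vector libraries were not analysed here. The authors deposited 1 peak list for each NR6A1 replicate, with a score for each peak and no read counts, so peaks were called per sample. The submitters' processing notes list Bowtie 0.12.7, MACS and the build mm9 but give them no roles. The MACS version, peak threshold and control library are not given in the sources used here. Read depth is unknown.

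Peaks were taken by midpoint, with positions counted from 1. Partners overlapped by at least 1 bp (Python 3.11.15, numpy 2.4.6, pandas 2.3.3, with the same counts from bedtools 2.31.1). They were merged into regions, and clusters were 3 or more shared regions with gaps of at most 10 kb. Shares carry 95% Wilson intervals (scipy 1.17.1). The code was tested on simulated lists. Promoters are from RefSeq. The window, lists of motifs and rule for named regions were chosen with earlier results of these data known; the rule names every shared region, the 3 highest peaks without a partner in each list and the peaks nearest to the gene. The 129.23, 129.34 and 129.38 Mb limits, the 500-kb intervals, the score limit of 1000 and the windows with 62 or more peaks were chosen after seeing the data. Alternatives were other partner definitions, upper 50% of scores, equal list lengths, scores under 3100 and other gaps.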

Additional observations from a re-analysis of the deposited data

How the results depend on the processing

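Of 35 values under an alternative, 20 stayed within their limit and 15 moved. The limit was wide. With equal list lengths, replicate 1 peaks fell from 43 to 32 and shared regions from 27 to 22, and both counted as having stayed. The 20 of 35 is therefore no measure of robustness. A value that stayed can still have lost its difference from the whole list. The replicate 2 share under 50% reciprocal overlap counts among the 20, at 53.7% in the window and 52.7% in the whole list. The upper 50% of each list by score, which by construction holds fewer peaks, left 22 and 27 peaks in the window in replicates 1 and 2, a partner share of 44.4% in replicate 2, against 50.2% of that whole list, 12 shared regions, no cluster (0) and median scores of 892 and 676. With midpoints within 100 bp as the definition of a partner, the shares were 39.5% in replicate 1 and 41.5% in replicate 2, with 17 shared regions and 1 cluster; the whole lists then gave 34.9% and 46.4%, so under both settings the window lay below its list in replicate 2, while it lay above under the overlap as reported. A 50% reciprocal overlap gave 1 cluster, a gap of 5 kb gave 1 and a gap of 20 kb gave 4, against 2 as reported. In the distal cluster, 6 regions were shared as reported, 5 under reciprocal overlap, 4 when midpoints had to be close, 3 in the upper 50% and 5 when the lists were equally long. These count regions in the reported span, which need not form 1 cluster under each setting. The largest cluster of the window had 3 regions under reciprocal overlap, close midpoints or a gap of 5 kb. It had 5 with equal list lengths and 6 with a gap of 20 kb. Equal list lengths gave a replicate 1 median score of 618. Beyond what each setting removes by construction, the cause was not tested. The median log2 ratio was negative under each of its 5 alternatives. Percentiles, on another scale than scores, are in the text above. No paired analysis was possible because no values of the vector libraries were used. Without 1 of the replicates no partner can be counted, which does not change the other list's counts. Sites under the peak threshold cannot be seen in these lists, and the depth behind each score is unknown.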
